A study of Mus musculus with 10 samples.

Results

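The Zfp genes described here are the mouse zinc finger genes whose symbol is Zfp followed by a number alone and whose level in liver was at least 5 CPM. CPM are a gene's reads scaled to a common library size, and the members were chosen by their symbol and by their mean CPM over all 10 libraries, whatever the genotype. The count table held 324 such symbols among its 19764 genes, and 179 of them reached that level. The other 145 lay below it, and the whole table held 9219 other genes at 5 CPM or more. Zfp939 and Zfp87 lay just inside the limit, with means of 5.002 and 5.027 CPM, and Zfp324 and Zfp93 just outside it, with 4.935 and 4.89 CPM. All 179 genes passed the filter on low counts.

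Polyadenylated RNA of whole liver was sequenced from female mice of 2 genotypes, with 5 libraries each. GRMAC mice had both a floxed gene of the glucocorticoid receptor and LysM-Cre on 1 allele, while their GRflox littermates had the floxed gene, with no Cre named in their label. Every mouse had been fasted for 8 h from ZT12, the start of the active phase, and no fed mice or mice with Cre alone were analysed here. LysM-Cre acts in macrophages, neutrophils and other myeloid cells, so most cells of the liver keep the receptor gene. The ages of the mice are not given, and the labels do not say that each library is a separate animal, so the p-values measure the spread between these libraries. The comparison asks how liver transcripts differ in fasted mice whose myeloid cells were made to lose the receptor.

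A C2H2 zinc finger is a short fold in which a pair of cysteines and a pair of histidines hold a zinc ion, and strings of such fingers read DNA sequence. In many proteins of this family the fingers follow a KRAB box, which binds the corepressor Trim28. Trim28 brings in the histone methyltransferase Setdb1, HP1 proteins and deacetylases, and this machinery is best known for silencing transposable elements and keeping imprints. KRAB zinc finger genes have multiplied by tandem duplication and lie in clusters, so that reads from near-identical members can be split between them, and counts of such members are uncertain. The symbol Zfp is also carried by proteins of other kinds, such as the RNA-binding protein tristetraprolin (Zfp36) and the ubiquitin ligase Zfp598.

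Library totals were 23258884 to 26116916 counts in GRMAC and 25697931 to 27692528 in GRflox. The receptor gene itself, Nr3c1, was at 74.7 to 94.0 CPM in GRMAC and 63.8 to 81.2 CPM in GRflox (log2 fold change 0.18 ± 0.08 SE, adjusted p = 0.277, edgeR), and whole-liver counts over the gene do not check a deletion in myeloid cells. Hepatocyte markers (8 of 8 tested) summed to 120032 to 142975 CPM in GRMAC and 123136 to 141415 CPM in GRflox. The Kupffer cell markers summed to 199 to 295 CPM in GRMAC and 199 to 265 CPM in GRflox. Clec4f was the highest of them, and the sum does not show each marker. Within the list, Cd163 averaged 3.07 ± 0.493 CPM in GRMAC and 28.8 ± 7.81 CPM in GRflox (SD, n = 5 each). Its log2 fold change was −3.22 ± 0.19 SE (adjusted p = 2.55e-05, edgeR). Lyz2 averaged 21.1 ± 5.21 CPM in GRMAC and 32.3 ± 5.51 CPM in GRflox (−0.62 ± 0.16 SE, adjusted p = 0.114, edgeR). With DESeq2 the adjusted p of Lyz2 was 0.00907. LysM-Cre sits in the Lyz2 gene itself and is named in the GRMAC labels only. What the Cre allele does to the Lyz2 counts was not tested. The other Kupffer cell markers were not examined singly here. Only the B cell markers (3 of 4 in the table) had sums that did not overlap among the 10 marker lists, at 2.08 to 3.4 CPM in GRMAC and 0.624 to 1.9 CPM in GRflox. Hba-a1, Cpa1 and Prss2 were at 0 in all libraries. In whole liver, fewer cells of a type and less RNA per cell cannot be told apart.

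The DNA of the fingers is shown for 4 members that the results below turn on, because the same protein fold was written in DNA of very different base composition. Each line gives a stretch of the coding sequence from the first cysteine to the last histidine of 1 finger (GENCODE M21 transcripts, GRCm38), with the cysteine and histidine codons in capitals. The Zfp945 finger lay at chr17:22852228-22852290 on the minus strand, the Zfp760 finger at chr17:21722473-21722535 on the plus strand, the Zfp275 finger at chrX:73353976-73354038 on the plus strand and the Zfp276 finger at chr8:123265356-123265427 on the plus strand. All 4 lie within coding exons.
Zfp945: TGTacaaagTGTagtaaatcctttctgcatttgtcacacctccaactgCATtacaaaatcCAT
Zfp760: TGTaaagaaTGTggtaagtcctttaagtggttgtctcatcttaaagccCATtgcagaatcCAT
Zfp275: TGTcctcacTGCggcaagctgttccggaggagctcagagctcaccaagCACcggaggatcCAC
Zfp276: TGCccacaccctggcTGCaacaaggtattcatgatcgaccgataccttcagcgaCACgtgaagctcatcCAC
Zfp945 has 18 such motifs, with a median GC content of 36.5%, and Zfp760 has 17, with 38.1%. In Zfp275 there are 12 motifs at a median of 61.4% GC, and in Zfp276 there are 5 at 54.2%.

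Of the 179 Zfp genes, Zfp945 and Zfp275 were higher in GRMAC liver at an adjusted p under 0.05 (edgeR's quasi-likelihood test, Benjamini-Hochberg over 12558 genes), and 0 were lower (1 with DESeq2, 0 with limma-voom, and 15 at an unadjusted p under 0.05). Over the other genes at 5 CPM or more, 0.141% were called higher and 0.0651% lower, and over all tested genes 0.119% and 0.0557%. Zfp945 encodes a KRAB zinc finger protein and lies at chr17:22846697-22867134 (mm10, minus strand). Its levels were 16.7, 17.7, 16.7, 16.1 and 13.5 CPM in GRMAC libraries 1 to 5, against 10.3, 11.7, 11.4, 11.8 and 8.75 CPM in GRflox libraries 1 to 5. The lowest GRMAC library stood above the highest GRflox library. Its log2 fold change was 0.58 ± 0.10 (SE, n = 5 each; adjusted p = 0.0432, edgeR).

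Zfp275, a C2H2 gene with no KRAB-like box, lies at chrX:73342620-73359080 (plus strand). Its levels were 20.5, 18.2, 20.4, 22.9 and 21.9 CPM in GRMAC, against 15.6, 15.8, 14.5, 14.8 and 16.2 CPM in GRflox. The groups did not overlap, and the GRflox libraries lay within 14.5 to 16.2 CPM. Its log2 fold change was 0.44 ± 0.07 (SE, n = 5 each; adjusted p = 0.0432, edgeR). Both calls lay close to the threshold. Neither gene was called when GRMAC 1, 3 or 4 or GRflox 1, 2, 3 or 5 was left out, only Zfp945 was called without GRflox 4 and only Zfp275 without GRMAC 2, and both were called without GRMAC 5. Over all alternatives the fold change lay between 0.432 and 0.64 for Zfp945 and between 0.385 and 0.484 for Zfp275, with adjusted p-values up to 0.0987 and 0.0934. Corrected for the GC content and length of transcripts, the fold change was 0.43 for Zfp945 (adjusted p = 0.09, edgeR) and 0.39 for Zfp275 (adjusted p = 0.058, edgeR), and neither was called.

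The deposited comparison of the authors drew more of the family. In the authors' deposited table, 8 Zfp genes were higher at an adjusted p under 0.05 (Zfp945, Zfp275, Zfp292, Zfp788, Zfp867, Zfp760, Zfp948 and Zfp369) and 1 was lower (Zfp276). In the same table, 1.97% of the other genes were higher and 1.84% lower, and the Zfp shares were 4.47% and 0.559%. The authors' deposited table gave Zfp945 an adjusted p of 5.3e-05 and Zfp275 one of 8.03e-05. At the other end of that list, the authors' deposited table gave Zfp369 an adjusted p of 0.0499. At an unadjusted p under 0.05 in the edgeR fit, 28 members were higher (15.6%, against 8.3% of the other genes) and 15 lower (8.38%, against 9.29%). The GRMAC libraries stood wholly above the GRflox libraries for 7 members (3.91%), where 1.92% of the other genes did so. No member stood wholly below, where 2.48% of the other genes did. The other 5 of those 7 were Zfp760, Zfp292, Zfp948, Zfp58 and Zfp865, of which Zfp948, Zfp58 and Zfp865 were named after their values were seen.

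**Figure D1:**
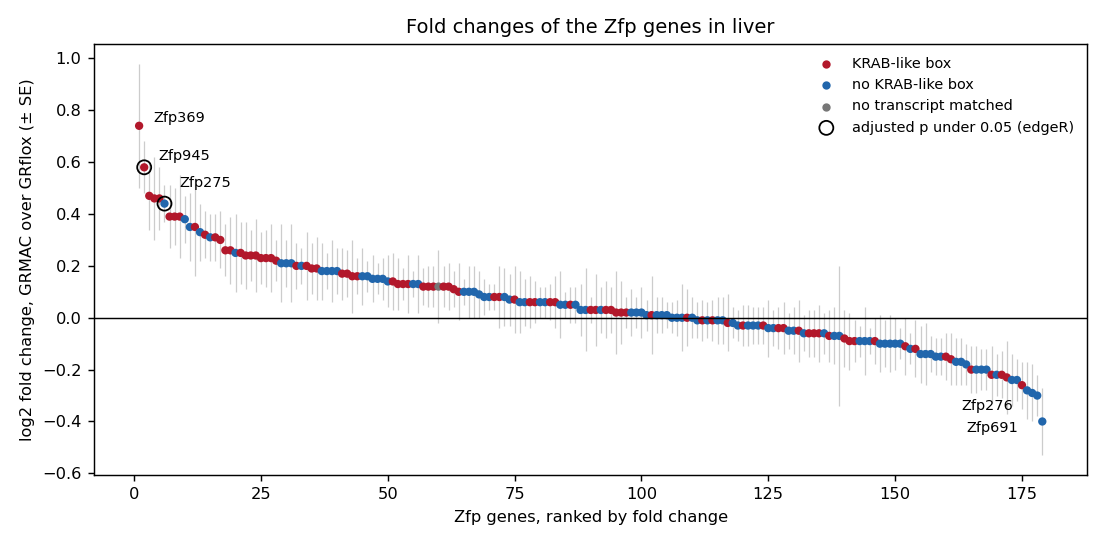
Log2 fold change of GRMAC over GRflox (vertical axis, bars are ± SE, n = 5 libraries each) for the 179 Zfp genes, ranked from highest to lowest (horizontal axis) and coloured by whether the encoded protein has a KRAB-like box. Values run from 0.74 to −0.40, and the circled Zfp945 and Zfp275 are the members past the threshold.

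Most members differed little between the genotypes. The median log2 fold change was 0.03, with quartiles at −0.06 and 0.16, and values ran from −0.40 (Zfp691) to 0.74 (Zfp369). A positive fold change was seen for 107 of the 179 members (59.8%), against 46.3% of the 9219 other genes (53.7% of which were negative), whose median was −0.01. The median of the members was 0.053 with library totals in place of TMM (117 positive), 0.057 over Zfp genes at 1 CPM or more and 0.013 over those at 10 CPM or more. No such medians were taken over the other genes, so these shifts have no comparison. The medians were also taken in bands of level. Between 5 and 10 CPM the median was 0.10 over 63 members and 0.04 over 1374 other genes. From 10 to 20 CPM it was 0.02 over 60 members and 0.01 over 1950 other genes, and from 20 to 50 CPM it was 0.00 over 44 members and −0.02 over 2892 other genes. The 12 members at 50 CPM or more had a median of 0.03, and the 3003 other genes of that level −0.03. The shares of positive fold changes in that band were 75% of members and 41.1% of other genes, and between 5 and 10 CPM 68.3% and 57.2%. The 110 Zfp genes below 5 CPM that were tested had a median of 0.12, with no median taken over other genes of that level. Of these 110, 0 were called in either direction by edgeR (14 higher and 3 lower at an unadjusted p under 0.05, 2 higher and 0 lower with DESeq2). Over all tested genes, 8.58% were higher and 7.75% lower at that unadjusted p, and 1.86% and 1.51% with DESeq2, and the 2 calls of DESeq2 are a share of 1.82%.

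Among the members with the largest positive fold changes, 8 more did not pass the edgeR test. Zfp369, a KRAB zinc finger gene at chr13:65278854-65297795, had 7.33, 8.70, 8.02, 7.30 and 6.01 CPM in GRMAC, against 6.24, 5.53, 4.87, 3.75 and 1.96 CPM in GRflox. The groups overlapped by a single library on each side, and GRflox 5 was the lowest library of all. Its log2 fold change was 0.74 ± 0.24 (adjusted p = 0.175, edgeR), and it was 0.552 to 0.892 when a library was left out. Zfp292 encodes a very large finger protein whose human counterpart is mutated in a neurodevelopmental disorder, and lies at chr4:34803110-34882948. It had 36.0, 34.6, 33.3, 37.5 and 35.3 CPM in GRMAC, against 30.9, 25.8, 29.4, 21.4 and 28.5 CPM in GRflox. All GRMAC libraries stood above all GRflox libraries, and the log2 fold change was 0.38 ± 0.09 (adjusted p = 0.0745, edgeR).

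Zfp760, at chr17:21707741-21725636, had 10, 11.8, 9.41, 11.5 and 8.64 CPM in GRMAC, against 8.55, 7.63, 6.77, 7.92 and 8.31 CPM in GRflox. The lowest GRMAC library was only just above the highest GRflox library (0.39 ± 0.11, adjusted p = 0.107, edgeR). Zfp871, a KRAB zinc finger gene at chr17:32765497-32788287, had 112, 183, 137, 104 and 110 CPM in GRMAC, against 94.4, 102, 81.4, 110 and 80.7 CPM in GRflox. GRMAC 2 stood far above the others (0.46 ± 0.16, adjusted p = 0.19, edgeR), and without it the fold change was 0.309. The remaining 4 of this group are KRAB zinc finger genes, and their groups overlapped. Zfp867 averaged 7.25 ± 0.721 CPM in GRMAC and 5.24 ± 0.966 CPM in GRflox (SD, n = 5 each). Zfp788 averaged 7.46 ± 1.0 CPM in GRMAC and 5.43 ± 0.642 CPM in GRflox. Zfp950 averaged 20.8 ± 4.31 CPM in GRMAC and 15.8 ± 1.42 CPM in GRflox, and Zfp960 averaged 5.96 ± 1.14 CPM in GRMAC and 4.56 ± 0.974 CPM in GRflox.

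At the other end, the 10 smallest fold changes ran from −0.40 to −0.22 and none passed the edgeR test. Zfp691, at chr4:119169518-119174195, had 9.48, 8.62, 9.56, 10.8 and 7.82 CPM in GRMAC, against 11.9, 10.5, 12, 10.3 and 16.3 CPM in GRflox. GRMAC 4 lay above GRflox 2 and GRflox 4, and GRflox 5 was the highest of all (−0.40 ± 0.13, adjusted p = 0.165, edgeR). Without GRflox 5 the fold change was −0.27. Zfp276, at chr8:123254195-123270551, had 21.7, 21.6, 24.4, 19.0 and 21.6 CPM in GRMAC, against 25.4, 24.0, 30.2, 27.8 and 25.8 CPM in GRflox. The only overlap was between GRMAC 3 and GRflox 2 (−0.30 ± 0.08, adjusted p = 0.102, edgeR). Zfp692 has been described as a repressor of a gluconeogenic gene under the control of the energy sensor AMPK. It had 8.54 ± 1.32 CPM in GRMAC and 10.4 ± 0.646 CPM in GRflox (SD, n = 5 each; −0.28 ± 0.11, adjusted p = 0.203, edgeR). Zfp281, a repressor of pluripotency genes in embryonic stem cells, had 27.2 ± 2.16 CPM in GRMAC and 32.2 ± 3.58 CPM in GRflox (−0.24 ± 0.08, adjusted p = 0.181, edgeR). The others were Zfp142 (−0.29), Zfp612 (−0.26), Zfp511 (−0.24), Zfp954 (−0.23), Zfp235 (−0.22) and Zfp646 (−0.22). Without GRflox 5 the fold change was −0.145 for Zfp954 and −0.193 for Zfp142.

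**Figure D2:**
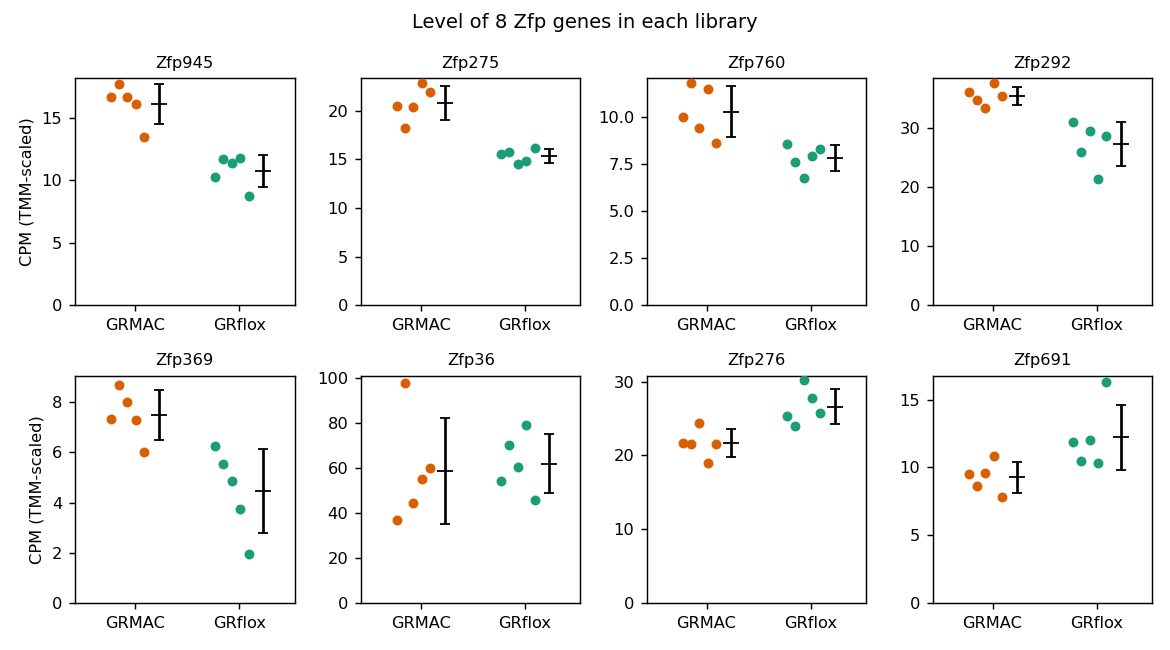
Levels in CPM scaled by TMM (vertical axes, from 0) of 8 Zfp genes in the 5 GRMAC libraries (left in each panel) and the 5 GRflox libraries (right), with the mean and SD beside the points. Zfp945, Zfp275, Zfp760 and Zfp292 show no overlap between the genotypes, and Zfp36 spreads most widely in CPM within each genotype, from 36.9 to 97.7 CPM in GRMAC and from 45.8 to 79.0 CPM in GRflox.

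The members were then divided by the protein they encode. A KRAB-like box was found in 83 of the 178 members with a matched transcript and not in 95, while Zfp939 had no match. The KRAB-like members had a median log2 fold change of 0.08, with 57 of 83 positive (68.7%). Those without the box had a median of 0.00, with 49 of 95 positive (51.6%). At an unadjusted p under 0.05, 17 KRAB-like members were higher (20.5%) and 3 lower (3.61%), while 11 members without the box were higher (11.6%) and 12 lower (12.6%). The other genes stood at 8.3% higher and 9.29% lower. The edgeR threshold was passed by 1 gene of each kind. A further 34 genes at 5 CPM or more encoded a KRAB-like box under other symbols. Their median was 0.09, with 23 positive (67.6%). The difference between the classes was not tested.

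The 2 classes also differed in base composition and in level. Transcripts of KRAB-like members had a median GC content of 42.0%, those without the box 51.4%, and the other genes at 5 CPM or more 50.3%. Per kilobase of transcript the KRAB-like members had a median of 2.72 CPM, members without the box 5.01 CPM, and the other genes 10.3 CPM. The number of C2H2 motifs per protein had a median of 12 in the KRAB-like class and 8 in the other. Median log2 fold changes by motif number were 0.02 for 25 members with 0 to 3 motifs, 0.03 for 61 with 4 to 9, 0.06 for 59 with 10 to 15 and 0.03 for 33 with 16 to 40.

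Fold change and GC content ran in opposite directions, both in the Zfp genes and in all others. Spearman's coefficient between log2 fold change and transcript GC content was −0.32 across the 178 members and −0.27 across 9208 other genes, as a description across genes of the same libraries. Below 40% GC the median log2 fold change was 0.12 over 31 Zfp genes and 0.06 over 340 other genes. Between 40% and 45% it was 0.07 over 52 Zfp genes and 0.04 over 1630 other genes. In the band from 45% to 50%, 28 Zfp genes had a median of 0.01 and the other genes 0.00. From 50% to 55% the medians were −0.01 over 30 Zfp genes and −0.03 over the other genes, and at 55% or more they were −0.01 over 37 Zfp genes and −0.06 over the other genes. In each of the 5 bands the Zfp median was above that of the other genes, by at most 0.06.

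The 2 classes of members differed by more or by less according to the band. Between 40% and 45% GC, the 35 KRAB-like members had a median of 0.08 and the 17 without the box 0.06. From 45% to 50% the medians were −0.02 over 12 KRAB-like members and 0.01 over 16 without the box. Below 40% they were 0.14 over 24 KRAB-like members and −0.01 over only 7 without the box, and at 55% or more 0.10 over only 5 KRAB-like members and −0.03 over 32 without the box. In the band from 50% to 55% they were −0.02 over 7 KRAB-like members and 0.00 over 23 without the box. After a correction of each library for GC content and length, the median log2 fold change was 0.02 for KRAB-like members, with 46 of 83 positive (55.4%), and −0.01 for those without the box. Over all Zfp genes it was 0.01 with the correction, with 93 of 179 positive (52.0%, against 46.1% of the other genes, with 53.9% of those negative). Spearman's coefficient with GC content was then 0.00, and 0.03 over the other genes. The correction was fitted on GC content and removes such a trend by design. The corrected median of the 34 other KRAB-like genes was 0.01.

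**Figure D3:**
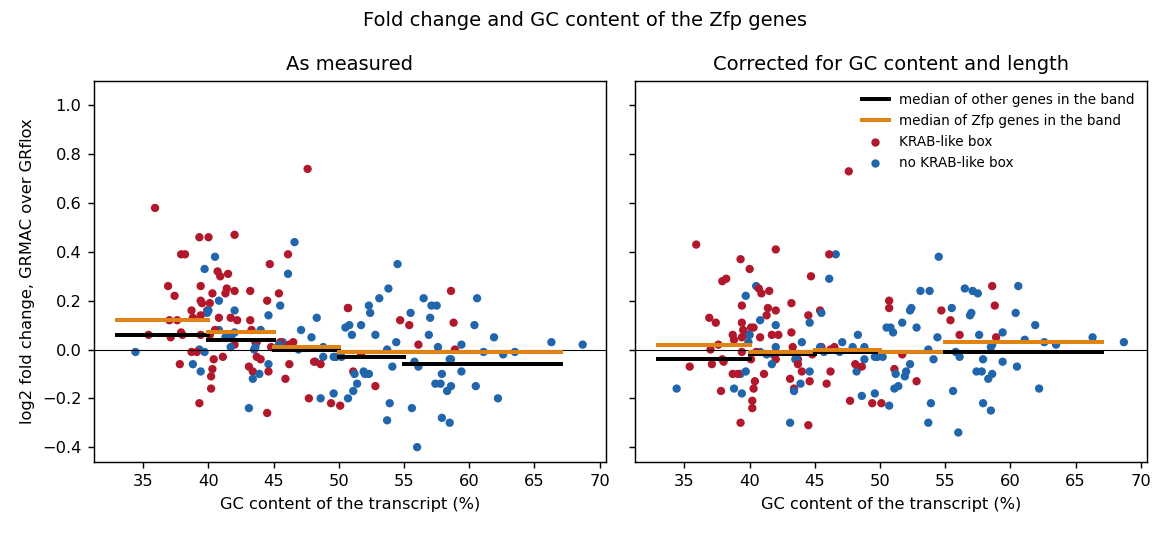
Log2 fold change of GRMAC over GRflox (vertical axes) against the GC content of the transcript in % (horizontal axes) for 178 Zfp genes, as measured (left) and after a correction of each library for GC content and transcript length (right). Bars give the medians of Zfp genes and of other genes in 5 bands of GC content, which slope downwards on the left, from 0.12 to −0.01 and from 0.06 to −0.06, and lie between −0.04 and 0.03 on the right.

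The libraries were also set side by side. Each gene's log2 CPM was centred on its mean over the 10 libraries, and the average over members gave a score for each library. For the KRAB-like members it was 0.055, 0.081, 0.034, 0.092 and −0.008 in GRMAC 1 to 5, against 0.008, −0.084, −0.078, −0.033 and −0.066 in GRflox 1 to 5. GRMAC 5 lay below GRflox 1, and the other GRMAC libraries lay above all GRflox libraries. Members without the box had scores from −0.026 to 0.023 in GRMAC and from −0.033 to 0.033 in GRflox, which overlapped over most of their range. The GC slope of the other genes, the change of centred log2 CPM per 10 points of GC content, was −0.042, −0.046, −0.055, −0.041 and 0.010 in GRMAC 1 to 5, against 0.009, 0.051, 0.009, 0.035 and 0.070 in GRflox 1 to 5. GRMAC 5 was the GRMAC library with a slope above 0 and also the one with a KRAB-like score below 0. GRMAC 1 to 4, the libraries with slopes below 0, had the highest KRAB-like scores. Among libraries of the same genotype, slope and score were not always in matching order. GRflox 1 and GRflox 3 had the same slope of 0.009 and KRAB-like scores of 0.008 and −0.078, and GRMAC 3, with the steepest negative slope, had the lowest score of GRMAC 1 to 4. The corrected values above show the fold changes with these slopes removed. Neither the source of the slopes nor their link to the scores was tested.

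**Figure D4:**
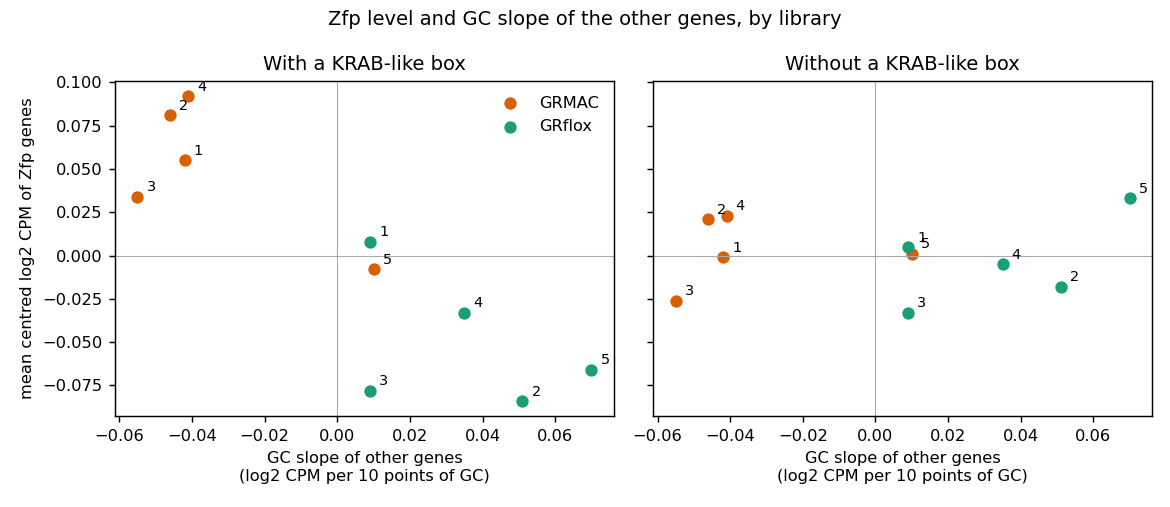
Mean centred log2 CPM of Zfp genes (vertical axes) against the GC slope of the other genes (horizontal axes, log2 CPM per 10 points of GC content) in each of the 10 libraries, numbered within genotype, for members with (left) and without (right) a KRAB-like box. GRMAC 1 to 4 lie at the upper left of the left panel and GRMAC 5 near GRflox 1, while the right panel shows no separation in height.

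Zfp genes lie in clusters along the chromosomes. With neighbours defined as members within 200 kb, 8 clusters of 4 or more held 44 members, and 101 members had no neighbouring member. Chromosome 17 carried 21 members, of which 19 were KRAB-like and 19 had a positive fold change, with a median of 0.16 and a median GC content of 39.3%. The other genes of chromosome 17 had a median log2 fold change of −0.03. In a cluster at chr17:21488988-21994366 all 6 members (Zfp53, Zfp948, Zfp760, Zfp229, Zfp942 and Zfp943) had positive fold changes, with a median of 0.19 as measured and 0.09 after correction for GC content and length. The 5 members of a cluster at chr17:32765497-33110704 (Zfp871, Zfp799, Zfp870, Zfp952 and Zfp563) ran from 0.12 to 0.46, with a median of 0.20 as measured and 0.14 corrected. None of these 11 genes passed the edgeR test, and 4 had an unadjusted p under 0.05, where 8.3% of the other genes at 5 CPM or more were higher at that p. These clusters were named after their values were seen. A cluster of 6 KRAB-like genes at chr13:67312998-67729173 (Zfp595, Zfp953, Zfp58, Zfp87, Zfp748 and Zfp65) had a median of 0.19 as measured and 0.10 corrected, with 5 of 6 positive and 2 higher at an unadjusted p under 0.05. It too was named after its values were seen.

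The largest cluster lies at chr7:29768552-30169727. Its 8 members had a median of 0.01, 5 of them were KRAB-like, and none passed the edgeR test. Zfp383 (0.24) and Zfp568 (0.17) were the highest, Zfp568 being a KRAB protein that represses a placental promoter of Igf2. Zfp790 was the lowest, with 11.7 ± 1.21 CPM in GRMAC and 13.4 ± 0.955 CPM in GRflox (SD, n = 5 each; −0.20, adjusted p = 0.282, edgeR). Zfp420 (0.08), Zfp27 (−0.06), Zfp84 (−0.06), Zfp260 (0.01) and Zfp146 (0.01) lay between them. Chromosome 7 held the most members, 43, and their median was −0.02, with 19 positive. A cluster of 4 KRAB-like genes at chr8:69610654-69774911 had a median of −0.01, and a cluster on chromosome 6 with transcripts of 55% GC had medians of 0.11 as measured and 0.14 corrected. The cluster at chr7:127233443-127376050 (Zfp553, Zfp771, Zfp768 and Zfp747) had medians of −0.13 as measured and −0.07 corrected, with 1 of 4 positive. For the 5 members at chr7:4915217-5038446 the medians were 0.03 as measured and 0.05 corrected.

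**Figure D5:**
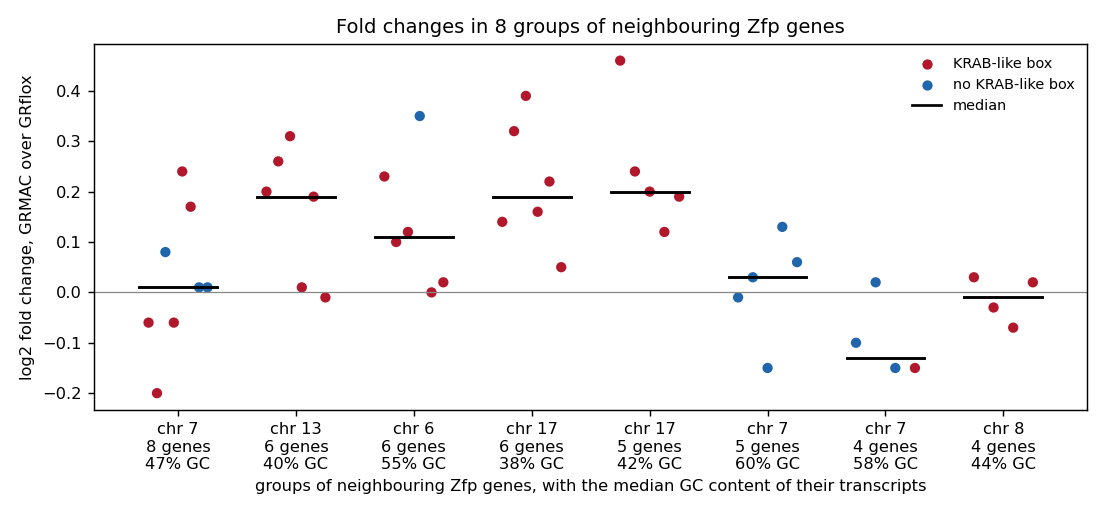
Log2 fold change of GRMAC over GRflox (vertical axis) of the members of 8 clusters of neighbouring Zfp genes (horizontal axis, with the number of members and their median GC content), coloured by KRAB-like box, with the median as a bar. Both clusters on chromosome 17 lie wholly above 0, while the largest, with 8 genes on chromosome 7, spreads from −0.20 to 0.24.

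Members known for other work than KRAB repression showed no call in edgeR. Zfp36, or tristetraprolin, binds AU-rich elements of messenger RNAs such as that of tumour necrosis factor and brings in the CCR4-NOT deadenylase, and glucocorticoids are known to induce it in macrophages. It lies at chr7:28376784-28379228. Its levels were 36.9, 97.7, 44.3, 54.9 and 60.2 CPM in GRMAC, against 54.0, 70.4, 60.4, 79.0 and 45.8 CPM in GRflox. The GRMAC libraries held both the lowest and the highest value, so the groups overlapped fully (−0.07 ± 0.27, adjusted p = 0.921, edgeR). Its relatives Zfp36l1 and Zfp36l2 had averages of 242 ± 63.7 and 111 ± 28.4 CPM in GRMAC, against 233 ± 56.7 and 113 ± 24.5 CPM in GRflox (SD, n = 5 each). Their log2 fold changes were 0.06 ± 0.21 and −0.03 ± 0.20.

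Zfp143, an activator of small nuclear RNA genes and of many promoters of housekeeping genes, had 12.1, 13.5, 11.5, 14.3 and 12.2 CPM in GRMAC, against 9.29, 12.1, 10.6, 9.84 and 9.38 CPM in GRflox. Only GRflox 2 reached into the GRMAC range (0.31 ± 0.09, adjusted p = 0.146, edgeR). Zfp148, a factor that binds GC-rich promoter elements, had a fold change of 0.15 ± 0.06 (adjusted p = 0.207, edgeR), which was 0.03 after correction for GC content and length. Zfp106 is an RNA-binding protein needed in motor neurons and muscle, and it averaged 134 ± 6.32 CPM in GRMAC and 127 ± 6.05 CPM in GRflox (0.08 ± 0.05). Zfp445, a KRAB protein that keeps imprints, averaged 101 ± 5.16 CPM in GRMAC and 95.4 ± 2.37 CPM in GRflox (0.08 ± 0.05).

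For Zfp598, the ligase that marks collided ribosomes, the averages were 98.9 ± 4.62 CPM in GRMAC and 97.5 ± 5.56 CPM in GRflox (0.02 ± 0.06). Zfp839 averaged 129 ± 5.88 CPM in GRMAC and 128 ± 7.87 CPM in GRflox (0.01 ± 0.06). The kinetochore protein Zfp207 had a log2 fold change of −0.06, and Zfp326, of the complex that couples splicing to RNA polymerase II, one of 0.00. It was −0.10 for Zfp622, a factor of ribosome maturation, and −0.12 for Zfp706, a repressor of Klf4 in embryonic stem cells. Zfp91, Zfp125 and Zfp809 were not analysed here. Per kilobase of transcript, the highest members were Zfp598, with 29.5 CPM in GRMAC and 29.1 CPM in GRflox, and Zfp207, with 27.6 CPM in GRMAC and 28.7 CPM in GRflox. Zfp945 ranked 136 and Zfp275 ranked 108 of 172 members on that scale. By mean CPM, not divided by length, they stood at 13.5 and 18.1 CPM, above the median of 13.1 CPM over the Zfp genes.

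No partner of the KRAB box was called. Of 28 listed symbols of corepressor and HUSH genes 25 were tested, with a median log2 fold change of 0.01. Fam208a and Tasor in that list are names of the same gene. None passed the edgeR or the DESeq2 test, and 2 were higher and 0 lower at an unadjusted p under 0.05, against 8.58% and 7.75% of all tested genes. Trim28 averaged 71.9 ± 4.46 CPM in GRMAC and 71.6 ± 5.22 CPM in GRflox (SD, n = 5 each; 0.00 ± 0.06). Setdb1 had a fold change of −0.09 ± 0.05. The lowest p of the list was that of Hdac1, a histone deacetylase, with 26.4 ± 2.06 CPM in GRMAC and 22.7 ± 1.15 CPM in GRflox (0.22 ± 0.07, adjusted p = 0.145, edgeR). Of 18 listed symbols of the tristetraprolin family and the CCR4-NOT deadenylase, 15 were tested, with a median of 0.06 (0.00 after correction for GC content and length). Cnot9 and Rqcd1 in that list are names of the same gene. None passed the edgeR or the DESeq2 test, and 4 were higher and 2 lower at an unadjusted p under 0.05. Cnot6, a deadenylase subunit, had the lowest p, with 46.1 ± 3.01 CPM in GRMAC and 40.5 ± 1.25 CPM in GRflox, and its groups did not overlap (0.19 ± 0.05, adjusted p = 0.136, edgeR).

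Other zinc finger families at 5 CPM or more had no gene past the edgeR threshold. The BTB domain family Zbtb had a median log2 fold change of 0.01 over 32 genes, and the SCAN family (Zscan and Zkscan) 0.08 over 15. The median was 0.03 over 13 Zc3h genes, 0.15 over 6 Zmym genes, 0.11 over 10 Zcchc genes and 0.02 over 17 Zdhhc genes, which encode palmitoyltransferases. Zfp genes whose symbol carries a suffix had a median of 0.10 over 17 genes. At an unadjusted p under 0.05, 21 of these 110 genes were higher and 3 lower, against 8.3% and 9.29% of the other genes at 5 CPM or more. DESeq2 called 3 higher and 0 lower, against 1.97% and 1.84% of the other genes.

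Promoters were read for the members with a RefSeq start site close to that of the count table, 149 of 179, in a window from 250 bases before to 50 after the start (RefSeq, GRCm38.p6). The motifs were searched on both strands. The GC box GGGCGG was present in 43.2% of 74 KRAB-like members and 64.9% of 74 members without the box, against 67.2% of 7004 other genes and 50% of all 14691 promoters. CCAAT, the NF-Y motif, was present in 58.1% of KRAB-like members and 43.2% of members without the box, against 38.5% of the other genes and of all promoters. The ETS motif CCGGAAG was present in 20.3% of KRAB-like members and 21.6% of members without the box, against 20.3% of the other genes and 12.7% of all promoters. ACTACAA, the core bound by Zfp143, stood in 9.46% of KRAB-like members and 6.76% of members without the box, against 4.75% of the other genes and 3.85% of all promoters. AGAACA, a half-site of the glucocorticoid receptor, stood in 18.9% of KRAB-like members and 8.11% of members without the box, against 11.9% of the other genes and 15.9% of all promoters. The AGAACA shares stand for 14 KRAB-like members and 6 without the box, of 74 each. The windows had a median GC content of 53.5% in KRAB-like members and 61.7% in members without the box. It was 61.7% in the other genes and 57.3% over all promoters. The shares of motifs were not adjusted for base composition. They are matches of letters, and no test was made of them.

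The promoters of both called genes are shown as the 150 bases before the start site, on the strand of the gene, with ETS motifs and GC boxes in capitals. That of Zfp945 lies at chr17:22867135-22867284 and has 44.0% GC and 5 CpG sites, and that of Zfp275 lies at chrX:73342470-73342619 and has 72.0% GC and 12 CpG sites.
Zfp945: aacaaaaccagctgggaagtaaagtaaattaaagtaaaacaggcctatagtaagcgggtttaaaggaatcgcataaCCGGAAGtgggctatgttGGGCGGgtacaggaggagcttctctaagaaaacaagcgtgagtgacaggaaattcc
Zfp275: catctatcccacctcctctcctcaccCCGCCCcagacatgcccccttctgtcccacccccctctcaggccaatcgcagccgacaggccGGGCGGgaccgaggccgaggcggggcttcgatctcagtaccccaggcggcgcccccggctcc
Both stretches hold a GC box, and that of Zfp945 holds an ETS motif as well.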

How the data were processed

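The libraries were made with an NEBNext Ultra kit and sequenced as pairs, per the labels' protocols. The authors deposited a table of read counts per gene, 1 RefSeq transcript per row. HISAT2 2.1.0, DESeq2 1.24.0 and the build mm10 are named in the submitters' processing notes. The counting program, its strand setting and whether reads in introns were counted are not given in the sources used here. A second deposited table holds the authors' log2 fold changes and adjusted p-values, per the file headers, and 10 columns of values per library in it were not used.

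Counts were scaled by TMM and tested with edgeR 4.0.16 (quasi-likelihood, robust, R 4.3.3) on the 12558 genes that filterByExpr kept of 19764, with Benjamini-Hochberg adjustment over all of them and a threshold of 0.05. The filter removed 0.0348% of the counts. Standard errors follow from the F statistic and the fold change. CPM are TMM-scaled, except in the rule for members, which uses column totals. A count of 3 corresponds to 0.108 to 0.129 CPM. GC content, length and proteins come from GENCODE M21 transcripts matched by RefSeq accession or symbol. For 6 members the matched transcript was shorter than the longest coding sequence. A KRAB-like box was a match of a profile of 34 residues, built from 87 seed windows, at an E-value up to 0.001 (pyhmmer 0.12.3). A C2H2 motif was C-x(2 to 4)-C-x12-H-x(3 to 5)-H. The correction for GC content and length used splines with 5 degrees of freedom per library as offsets.

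The members and lists were chosen with earlier results of these data known. Genes were named where they passed the threshold, were among the 10 highest or 10 lowest fold changes, the 5 with most reads, the 2 on either side of the level, the largest cluster, the lowest p of a list, or 14 genes of known role. Others, among them Trim28, Setdb1, Zfp36l1 and Zfp36l2, were named after their values were seen, and the members of the authors' list are given whole. Alternatives were DESeq2 1.42.0, limma-voom (limma 3.58.1), other scalings, filters and levels, the replicate number as a block, thinning, and leaving out libraries. The scripts were tested on simulated data.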

Additional observations from a re-analysis of the deposited data

Results flagged for a closer look

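Among 90 groups of 5 libraries examined, 3 held a library that stood far from the rest. By chance about 1 in 20 would, or 4.5. Zfp691 was at 16.3 CPM in GRflox 5, and the other GRflox libraries lay between 10.3 and 12 CPM. Cnot6 was at 51.4 CPM in GRMAC 5, and the other GRMAC libraries lay between 44.0 and 45.6 CPM. The GC slope of the other genes was 0.010 log2 CPM per 10 points of GC content in GRMAC 5, and the other GRMAC libraries lay between −0.055 and −0.041.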

How the results depend on the processing

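The 2 Zfp genes called higher became 8 with DESeq2, 0 with limma-voom, 0 without robust estimation, 0 with the GC and length correction and 1 without GRflox 4 and GRMAC 4 together. DESeq2 also called 1 lower. Leaving out 1 library gave 0 to 2 higher. The 22 calls over all genes became 424 with DESeq2, 8 with limma-voom, 8 without robust estimation, 34 with no filter, 7 with the GC and length correction, 68 without both libraries 4, and 5 to 47 without 1 library. The KRAB-like median was 0.015 with the GC and length correction, against 0.079, and 0.076 to 0.107 without 1 library. These KRAB-like values were added after the data were seen. At a mean of at least 1 CPM, 165 of 266 Zfp genes were positive (106 KRAB-like), and at 10 CPM 64 of 116 (26 KRAB-like). With the replicate block 81 genes were called over all genes, and 66 with the block and the GC and length correction, where the KRAB-like median was 0.014 and Zfp945 and Zfp275 were both called. Same-numbered libraries deviated together with correlations of −0.11 to 0.17, which do not settle whether they are pairs. The labels do not say that equal numbers pair animals, so the libraries were treated as unpaired. The cause of these shifts was not tested.

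Some named members close to 0, none of them called, changed sign. Zfp36 was 0.053 without both libraries 4. Zfp326 was −0.000 with no filter, −0.043 with the GC and length correction, −0.044 with the block added and −0.015 without both libraries 4. With the correction Zfp260 was −0.060, and −0.064 with the block added. Zfp146 was −0.006 without both libraries 4 and −0.000 thinned. Without 1 library the log2 fold change ran from −0.331 to 0.058 for Zfp36, −0.019 to 0.039 for Zfp326, −0.029 to 0.050 for Zfp260, −0.014 to 0.025 for Zfp146, −0.017 to 0.039 for Zfp839, −0.002 to 0.050 for Zfp598 and −0.002 to 0.123 for Zfp420. With every library thinned to the smallest total, Zfp945 and Zfp275 were both called.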
